A study of Mus musculus with 12 samples.

Results

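The genes described here encode the proteasome and the proteins that cap it. They were taken from a table of cardiomyocyte expression values by symbol, as every gene named Psma, Psmb, Psmc, Psmd or Psme followed by a number that had a value in at least 1 library. This gave 43 genes of 15371 with a value. By role, 8 encode the alpha ring of the core particle, 7 the constitutive beta ring and 3 the inducible catalytic subunits of the immunoproteasome (Psmb8, Psmb9 and Psmb10). Another 6 encode the ATPases of the regulatory particle, 11 its other subunits, 3 its assembly chaperones (Psmd5, Psmd9 and Psmd10) and 4 the activators Psme1 to Psme4. The symbol rule also took in Psmc3ip, a meiotic recombination factor that is no proteasome subunit. It is counted among the 43 genes, and its values are described apart.

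The study asked which genes Hey1 and Hey2, repressors downstream of Notch, regulate in mouse embryonic stem cells and cardiomyocytes. The cells analysed here are labelled as cardiomyocytes, made in culture from CM7/1 mouse embryonic stem cells. There were 4 RNA libraries: the line with inducible Hey1 and the line with inducible Hey2, each without doxycycline as control and after 1000 ng/ml doxycycline for 48 h. Each of these 4 groups was 1 library, and doxycycline-treated cells without an inducible gene are not among them, and what doxycycline alone does cannot be told apart from what Hey1 or Hey2 does. Whether a line is a single clone is not given in the sources used here.

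The proteasome degrades proteins that carry ubiquitin chains. Its core particle is a barrel of stacked rings in which outer alpha rings control entry and inner beta rings hold the catalytic sites, and the regulatory particle binds ubiquitin, removes it and threads the substrate into the barrel with its ATPase ring. In immune cells, and in other cells exposed to interferon, Psmb8, Psmb9 and Psmb10 replace the constitutive catalytic subunits Psmb5, Psmb6 and Psmb7 and change which peptides are made for presentation on class I molecules. Cardiomyocytes depend on the proteasome for the turnover of damaged and sarcomeric proteins.

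Hey proteins bind CACGTG and CACGCG letters, and these were looked up, on both strands, in the RefSeq promoter windows of GRCm38.p6, which run from 250 bases before to 50 bases after a gene's start. Such windows were found for 36 of the 43 genes, 39 windows in all, and they were set beside all 32851 windows of the same length. CACGCG stood in 8 of the 39 (20.5%) against 9.27% of all windows, and CACGTG in 4 (10.3%) against 7.15%. All windows here include those of genes not expressed in these cells, and they were not matched for base composition. The 8 with CACGCG were those of Psma3, Psma4, Psmc2, Psmc4, Psmd2, Psmd5, Psmd14 and Psme4. The windows of 4 genes to which the comparisons below return are shown with 20 bases on each side of the match, on the gene's own strand, with the match in capitals. Where the match lies on the opposite strand it reads CGCGTG.
Psma3, chr12:70974528-70974573, plus strand: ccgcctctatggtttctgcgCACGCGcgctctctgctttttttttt
Psma4, chr9:54950781-54950826, plus strand: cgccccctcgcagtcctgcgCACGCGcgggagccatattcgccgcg
Psmd14, chr2:61711595-61711640, plus strand: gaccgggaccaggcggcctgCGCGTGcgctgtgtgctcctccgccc
Psme4, chr11:30771614-30771659, plus strand: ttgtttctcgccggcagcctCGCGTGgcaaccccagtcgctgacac
The first base of the match lies at position −75 from the start in Psma3, −58 in Psma4, −79 in Psmd14 and −141 in Psme4. CACGTG, which reads the same on both strands, stood in the windows of Psma4, Psmb10, Psmd9 and Psme3.
Psmb10, chr8:105938483-105938528, minus strand: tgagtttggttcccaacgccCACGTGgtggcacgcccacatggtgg
Psme3, chr11:101316149-101316194, plus strand: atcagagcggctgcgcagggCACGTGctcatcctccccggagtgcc

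Other letters were searched in the same way. TGACNNNGC, the core of the antioxidant response element through which Nfe2l1 and Nfe2l2 act on proteasome genes, stood in 6 of the 39 windows (15.4%) against 12.4% of all. CCAAT, the letters bound by NF-Y, stood in 14 (35.9%) against 37.4%. The core of the interferon-stimulated response element stood in 4 (10.3%), those of Psmb3, Psmd4, Psmd9 and Psme1, against 3.44%. Psmb9 and Tap1, a subunit of the peptide transporter of class I presentation, are transcribed away from each other from starts with 225 bases between them. That stretch is shown on the strand of Psmb9 because both genes return in the comparison of the lines, with its only match to any of these letters, CCAAT on the opposite strand, in capitals.
Psmb9 to Tap1, chr17:34187331-34187555, minus strand: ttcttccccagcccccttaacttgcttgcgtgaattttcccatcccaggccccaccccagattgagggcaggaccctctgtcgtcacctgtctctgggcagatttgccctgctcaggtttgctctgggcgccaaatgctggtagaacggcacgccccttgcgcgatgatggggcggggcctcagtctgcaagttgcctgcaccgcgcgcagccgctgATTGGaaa

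Levels are RPKM, in which reads are divided by gene length and by library depth. The reads behind them were recovered from the steps of the values, and give each level and each ratio a 95% interval of counting error only. The 43 genes together rested on 14616 reads before and 13503 after induction of Hey1, and on 15399 reads before and 26435 after that of Hey2. Over all listed genes 2281493 to 4147627 reads per library were recovered. Hey1 went from 0.735 to 8.59 RPKM in its own line, and Hey2 went from no listed value to 6.59 RPKM in its own. All 14 cardiomyocyte markers searched were listed in every library, but their summed level was 26414 and 27104 RPKM in the uninduced and induced Hey1 line and 1448 and 1494.5 RPKM in the Hey2 line, where the markers thus go against the label in level. The summed level of pluripotent stem cell markers was 40 and 31 RPKM in the Hey1 line and 423 and 439 RPKM in the Hey2 line, and that of cell cycle genes 53.6 and 46.5 against 325 and 317 RPKM. Bulk libraries do not tell apart a different mix of cells from a different amount of RNA per cell.

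**Figure D1:**
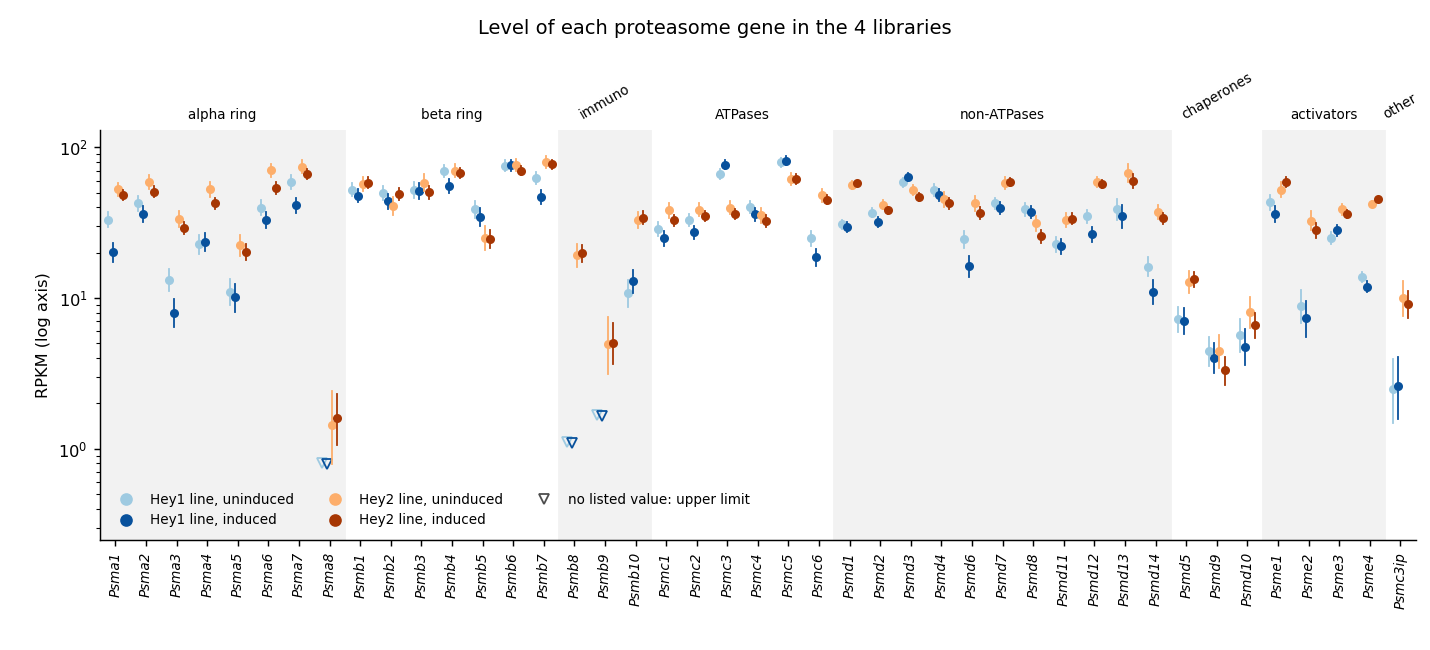
Level of each of the 43 genes in RPKM on a log axis, by role, in the uninduced and induced libraries of the Hey1 line (light and dark blue) and the Hey2 line (light and dark orange), with bars for the 95% counting interval of each library. Open triangles mark upper limits where no value was listed. Psmb8, Psmb9 and Psma8 have values in the Hey2 line only, and the alpha ring genes stand higher in orange than in blue.

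Most subunit genes were expressed above the median of all genes compared. The median of the listed genes, 40 in the Hey1 and 43 in the Hey2 line, was 35.7 RPKM in the uninduced and 30.8 RPKM in the induced Hey1 line. It was 41.5 and 38.0 RPKM in the Hey2 line, against 5.42, 5.07, 6.40 and 6.44 RPKM over all 10991 genes compared. The 14 genes that make up the constitutive core particle (Psma1 to Psma7 and Psmb1 to Psmb7) spanned 6.86-fold from lowest to highest in the uninduced and 9.51-fold in the induced Hey1 line. They spanned 3.57-fold and 3.80-fold in the Hey2 line. The chaperones Psmd5, Psmd9 and Psmd10 lay far below the subunits they serve, between 3.31 and 13.3 RPKM over the 4 libraries. The order of levels over the 40 genes listed in all libraries was nearly the same in the libraries of a line, with Spearman's rho of 0.977 in the Hey1 and 0.963 in the Hey2 line. Between libraries of different lines rho was 0.670 to 0.762. These values are over genes, which are not independent.

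Induction of Hey1 was compared first. Only genes listed in each of the 4 libraries, at 1 RPKM or more on average, entered this and the following comparisons, and 40 of the 43 did. In the induced Hey1 line most of these genes were slightly lower. The difference of log2(RPKM + 1), induced minus uninduced, was below 0 for 32 of 40, where 61.6% of all genes compared lay below 0, with a median of −0.16 against −0.06 over all genes. Scaling the libraries by the median ratio of all genes brought the median to −0.072 and the number below 0 to 27 of 40, and scaling by the upper quartile gave −0.097 and 27. Without the chaperones and Psmc3ip the median of the other 36 genes was −0.17. Counted by size on that scale, 9 genes were lower by at least 20% and none was higher by at least 25%, the same fold in the other direction, against 12.6% and 3.28% of all genes. The 9 were Psma1, Psma3, Psma7, Psmb4, Psmb7, Psmc6, Psmd6, Psmd12 and Psmd14. The counting interval of the ratio lay below 1 for 14 genes (background 13.4%) and above 1 for Psmc3 alone (4.86%). No gene passed 2-fold, a size that 0.109% of all genes passed downwards and 0.0273% upwards. With median ratio scaling, 5 of the 40 genes were lower and 1, Psmb10, was higher by these sizes, against 8.23% and 6.92% of all genes, and 5 genes changed sign (Psmb3, Psmd1, Psmd5, Psmd8 and Psmd11).

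After induction of Hey2 fewer genes passed these sizes. In RPKM as deposited the median lay further from that of all genes than after Hey1 induction, by −0.121 against −0.099, an order that was lost once gene length was allowed for, as given below. Here 31 of the 40 genes lay below 0, against 50.6% of all genes, with a median of −0.12 against −0.00 over all genes. By at least 20%, Psma6 and Psmd9 were lower (background 5.9%), and no gene was higher by at least 25% (5.62%) or passed 2-fold (0.0364% lower and 0.0091% higher). The counting interval lay below 1 for 7 genes (6.63%), Psma2, Psma4, Psma6, Psmc1, Psmd3, Psmd6 and Psmd8, and above 1 for Psmb2 and Psme4 (7.99%). Gene length moved with this difference: over 10982 genes Spearman's rho between length and difference was 0.23, longer genes being higher after induction, and the genes described here are short, with a median length of 1290 bases against 2890 bases. With the trend on length removed the median of the 40 genes was −0.076 against −0.006 over all genes. After Hey1 induction it was then −0.127 against −0.054, a gap of about the same size. Only Psmc5, at −0.00, changed sign under another scaling.

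The inductions share no library. Below 0 in both were 24 of the 40 genes, against 31.8% of all genes, and above 0 in both was Psmb10 (19.6%). The interval lay below 1 in both inductions for Psma6 and Psmd6 (1.43%). No gene was lower by at least 20% in both (1.2%). These joint counts are of RPKM as deposited, and were not recomputed with other scalings or with the length trend removed. The ratio after Hey2 induction divided by that after Hey1 induction had a counting interval above 1 for 12 of the 40 genes (12.7% of all genes) and below 1 for 4 (4.16%). With median ratio scaling, an alternative chosen after seeing the data, 7 were above (8.4%) and 5 below (6.96%). The largest was Psma1, at 1.5 (1.21 to 1.88), and the smallest Psma4, at 0.780 (0.610 to 0.997). Without a second culture per group, differences between cultures were not tested. The genes with CACGCG in their windows, 8 of those compared, had a median of −0.20 after Hey1 and −0.13 after Hey2 induction, and the 26 with a window without it −0.16 and −0.12. The 4 with CACGTG, Psma4, Psmb10, Psmd9 and Psme3, had medians of 0.10 and −0.20, and the 30 without it −0.20 and −0.13.

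**Figure D2:**
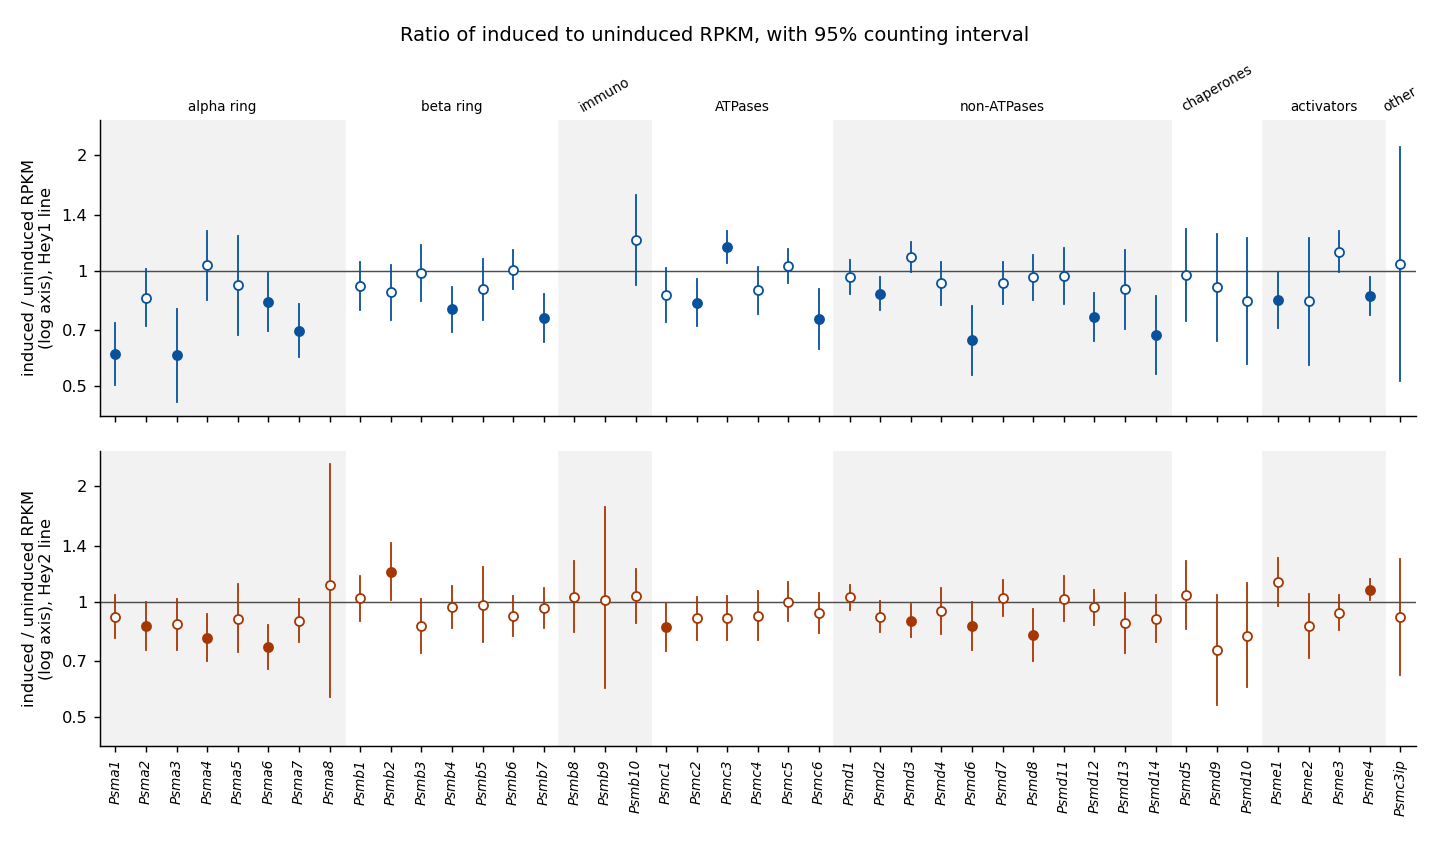
Ratio of induced to uninduced RPKM of each gene on a log axis, for the Hey1 line (top) and the Hey2 line (bottom), with 95% counting intervals and filled points where the interval leaves out 1. Most points lie below 1 in both lines, the lowest in the Hey1 line being Psma1 and Psma3, and the 7 alpha ring genes listed in all libraries lie below 1 in the Hey2 line.

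The lines were compared next, Hey2 line minus Hey1 line, within the uninduced and within the induced libraries. This sets the control cells of the inductions, and the induced cells, side by side. Over all genes the median difference was 0.20 in uninduced and 0.27 in induced cells, and 0.01 and 0.00 after scaling by the median ratio, so differences between lines are to be read relative to it. The 40 genes had a median of 0.44 in uninduced and 0.58 in induced cells, which after that scaling was 0.21 and 0.27. In uninduced cells 9 genes lay below 0 (background 42.0%), 24 were higher by at least 25% (background 44.8%) and 3 were lower by at least 20% (30.1%). The counting interval lay above 1 for 27 (44.0%) and below 1 for 7 (28.8%). Past 2-fold 7 were higher (19.7%) and none was lower (13.1%). In induced cells 10 lay below 0 (39.9%), and by the same sizes 26 were higher (47.7%) and 5 lower (28.7%). The interval lay above 1 for 28 (48.1%) and below 1 for 6 (29.2%), and 10 were higher (22.8%) and 1, Psmc3, lower (12.3%) past 2-fold. After scaling by the median ratio, 36.7% of all genes were higher and 36.8% lower by these sizes in uninduced cells. In induced cells 37.1% were higher and 38.0% lower. Of the 40 genes, 8 in uninduced and 10 in induced cells were then lower by at least 20%, and 15 and 14 lay below 0.

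The 24 genes higher by at least 25% in uninduced cells were so in both comparisons of the lines (41.4% of all genes), and Psmb5, Psmc3 and Psmc5 were lower by at least 20% in both (25.4%). Past 2-fold, Psma3, Psmb10, Psmd14, Psme2, Psme4 and Psmc3ip were higher in both (17.5%). Cardiomyocyte markers were lower and stem cell and cell cycle markers higher in the Hey2 line, as given above, and the part of this in the differences was not tested. The comparisons of the lines use the same 4 libraries as the inductions.

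**Figure D3:**
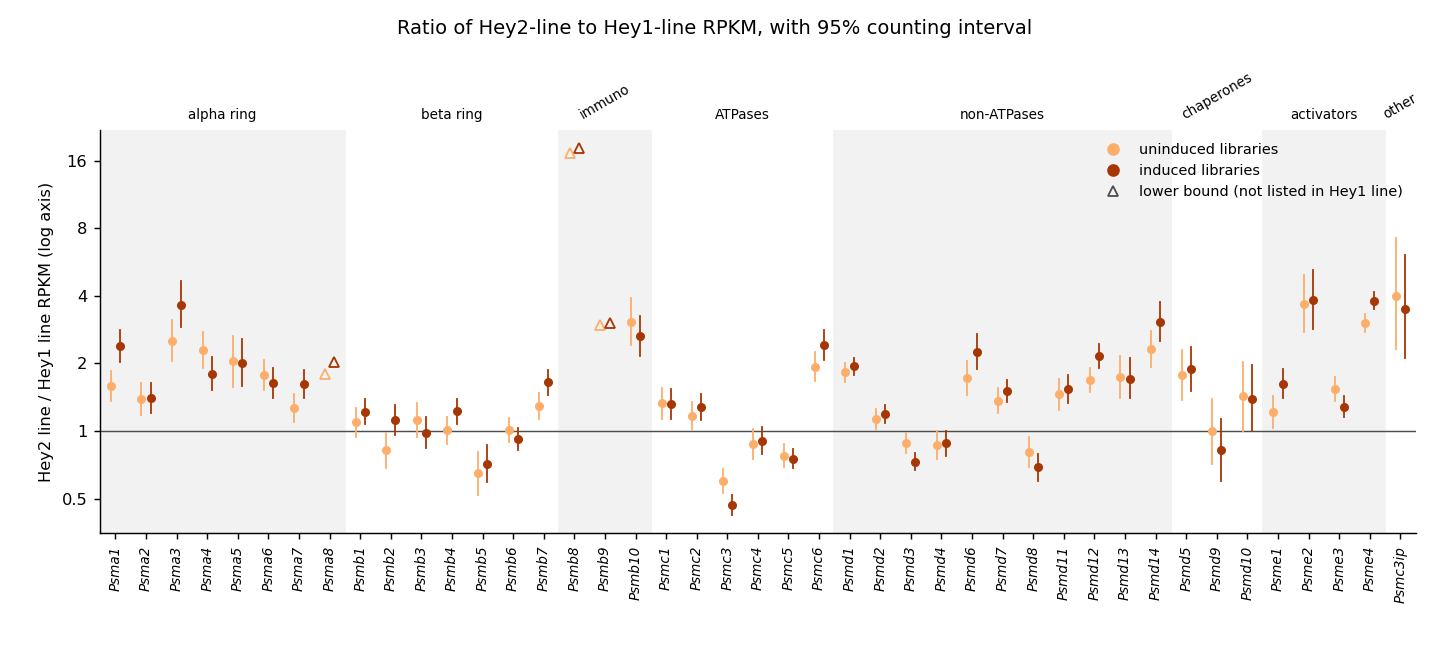
Ratio of Hey2-line to Hey1-line RPKM of each gene on a log axis, in uninduced (light) and induced (dark) libraries, with 95% counting intervals. Open triangles are lower bounds for genes with no listed value in the Hey1 line, the highest being Psmb8 at 17.4 and 18.1. The alpha ring and the activators lie above 1, and the constitutive beta ring and ATPases on both sides of it.

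The alpha ring was lower in level in the Hey1 line, and its median difference after Hey1 induction, −0.26, was the lowest of the roles, also with both other scalings. Psma1 stood at 33.1 and 20.1 RPKM without and with induction in the Hey1 line and at 52.5 and 48.0 RPKM in those of the Hey2 line. The induced Hey1-line value was the lowest, 1.65-fold below its control (1.37 to 1.98), while the Hey2-line values were 1.09-fold apart, within counting error. Psma3 behaved alike, at 13.2 and 7.98 RPKM in the Hey1 line, 1.66-fold lower (1.26 to 2.20), and 33.4 and 29.2 RPKM in the Hey2 line, 1.15-fold lower (0.981 to 1.34). Psma7, the most abundant alpha gene, had 58.9 and 41.2 RPKM, 1.43-fold lower (1.22 to 1.68), and 74.4 and 66.4 RPKM, 1.12-fold lower (0.983 to 1.28). In these 3 genes the uninduced and induced levels lay apart beyond counting error in the Hey1 line and within it in the Hey2 line, and the ratio of the Hey2 to the Hey1 induction had an interval above 1, at 1.5 for Psma1, 1.45 (1.06 to 1.97) for Psma3 and 1.28 (1.04 to 1.56) for Psma7. With median ratio scaling the interval of Psma7 took in 1. Psma6 was lower after both inductions, from 39.7 to 32.9 RPKM in the Hey1 line, 1.21-fold, and from 70.5 to 53.7 RPKM in the Hey2 line, 1.31-fold, both beyond counting error. Psma4 went the other way round, with 22.8 and 23.6 RPKM in the Hey1 line (1.03-fold higher, 0.842 to 1.27) and 52.5 and 42.4 RPKM in the Hey2 line (1.24-fold lower, 1.07 to 1.43). Psma2 had 42.4, 36.1, 58.8 and 50.7 RPKM, in the order uninduced and induced Hey1 line, uninduced and induced Hey2 line. Psma5, which has a pseudogene copy in RefSeq and is therefore less certain, had 11, 10.1, 22.4 and 20.3 RPKM in that order.

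All 7 of these alpha genes were higher in the Hey2 line by at least 25%, with intervals above 1, in uninduced and in induced cells, and all 7 stayed above 0 under both other scalings. Their median difference was 0.81 in uninduced and 0.82 in induced cells (0.57 and 0.50 with median ratio scaling). Psma3 was furthest apart, 2.53-fold (2.05 to 3.12) in uninduced and 3.66-fold (2.89 to 4.67) in induced cells. Psma7 was closest in uninduced cells, at 1.26-fold (1.09 to 1.46), and Psma2 in induced cells, at 1.41-fold (1.21 to 1.64). Psma8, the alpha subunit of the testis proteasome, was listed at 1.44 and 1.59 RPKM in the Hey2 line, from 14 and 28 reads. In the Hey1 line it had no value, below 0.798 and 0.788 RPKM, so it was at least 1.80-fold and 2.02-fold higher in the Hey2 line.

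As a group, the constitutive beta ring differed less between lines than the alpha ring. Its 7 genes had a median difference of 0.01 in uninduced and 0.16 in induced cells, which turned to −0.23 and −0.16 under median ratio scaling. With that scaling 6 of the 7 were lower in the Hey2 line in each comparison. The ratio of the median alpha to the median beta level, which no scaling of a library can change, was 0.634 in the uninduced and 0.494 in the induced Hey1 line. In the Hey2 line it was 0.901 and 0.824. Alpha genes were thus about level with beta genes in the Hey2 line and well below them in the Hey1 line, and lower after each induction than before it. Among beta genes with no catalytic role, Psmb2 had 49.8 and 43.8 RPKM in the Hey1 line and 40.9 and 48.9 RPKM in the Hey2 line. It was higher after Hey2 induction, 1.20-fold with an interval above 1, and 1.14-fold lower after Hey1 induction (0.965 to 1.34). Psmb3 had 51.9, 51.3, 58.3 and 50.4 RPKM, the 4 libraries in the order above. Psmb4 was 1.26-fold lower after Hey1 induction (1.10 to 1.44), and Psmb1 lay within counting error of its control in both lines.

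The catalytic genes of the beta ring did not move together. Psmb5, which encodes the chymotrypsin-like site, stood at 38.6 and 34.6 RPKM in the Hey1 line and at 25.2 and 24.7 RPKM in the Hey2 line. It was the beta gene most below its Hey1-line level, 1.54-fold (1.23 to 1.92) in uninduced and 1.4-fold (1.16 to 1.69) in induced cells. Psmb6, the caspase-like site, was nearly level at 75.4, 75.9, 76.0 and 69.9 RPKM. Psmb7, the trypsin-like site, had 62.2 and 46.8 RPKM in the Hey1 line, 1.33-fold lower after induction (1.15 to 1.54), and 80.0 and 77.1 RPKM in the Hey2 line. It was the beta gene furthest above its Hey1-line level, 1.29-fold (1.13 to 1.47) and 1.65-fold (1.45 to 1.88). RefSeq names pseudogene copies of Psmb5, Psmb6 and Psmb7, and how the authors assigned reads that fit several places is not given in the sources used here.

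The immunoproteasome genes were higher in the Hey2 line. Psmb8, the inducible counterpart of Psmb5, was not listed in the Hey1 line, below 1.10 and 1.09 RPKM, and stood at 19.2 and 19.8 RPKM in the Hey2 line, from 135 and 251 reads. This was at least 17.4-fold higher in uninduced and 18.1-fold higher in induced cells. Psmb9, the counterpart of Psmb6, had no value in the Hey1 line, below 1.68 and 1.65 RPKM, and 4.96 and 5.02 RPKM in the Hey2 line, at least 2.96-fold and 3.04-fold higher. Psmb10, the counterpart of Psmb7, was listed throughout, at 10.7 and 12.9 RPKM in the Hey1 line and 33.0 and 34.2 RPKM in the Hey2 line. It was 3.07-fold higher (2.42 to 3.91) in uninduced and 2.64-fold higher (2.16 to 3.26) in induced cells of the Hey2 line. The ratios that could be formed lay within counting error: after Hey2 induction the ratio was 1.03 (0.833 to 1.28) for Psmb8, between 0.595 and 1.76 for Psmb9 and 1.03 (0.883 to 1.22) for Psmb10, and after Hey1 induction it was 1.20 (0.916 to 1.58) for Psmb10. Psmb8 and Psmb9 have no ratio for Hey1 induction.

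Set against its constitutive counterpart within each library, a ratio that depth and scaling leave untouched, Psmb8 was below 2.86% and 3.15% of Psmb5 in the Hey1 line. In the Hey2 line it was 76.3% (59.4 to 98.1) and 80.2% (66.7 to 96.4). Psmb9 reached 6.53% (4.09 to 9.92) and 7.19% (5.14 to 9.81) of Psmb6 in the Hey2 line and was below 2.22% and 2.18% in the Hey1 line. Psmb10 was 17.3% (13.8 to 21.5) and 27.6% (22.3 to 34.0) of Psmb7 in the Hey1 line and 41.2% (35.1 to 48.3) and 44.3% (39.4 to 49.8) in the Hey2 line. The inducible genes thus took very unequal shares, with Psmb8 close to its counterpart in the Hey2 line and Psmb9 far below. Of 10 leukocyte markers searched, uninduced Hey1-line cells had a value for 1 and induced ones for 2, at summed levels of 0.733 and 2.10 RPKM. Hey2-line cells had values for 3 without induction, summing to 7.23 RPKM, and for 4 with it, summing to 10 RPKM. The lowest commonly listed number was 10 reads in the Hey1 and 5 in the Hey2 line, so these counts rest on unlike limits. Ptprc, Itgam, Cd3e, Fcer1g and Tyrobp had no value in any library. Laptm5, the only marker of the list with a value in every library, was level between the lines. It had 0.733 and 0.778 RPKM in the Hey1 line and 0.725 and 0.764 RPKM in the Hey2 line. The macrophage marker Cd68 was higher in the Hey2 line, with no value and 1.32 RPKM in the Hey1 line and 4.66 and 6.12 RPKM in the Hey2 line, 4.63-fold (2.36 to 10.1) in induced cells. Cd74, the invariant chain of class II presentation, was listed in the Hey2 line only, at 1.84 and 2.93 RPKM. The part of these markers in the levels of the immunoproteasome genes was not tested.

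**Figure D4:**
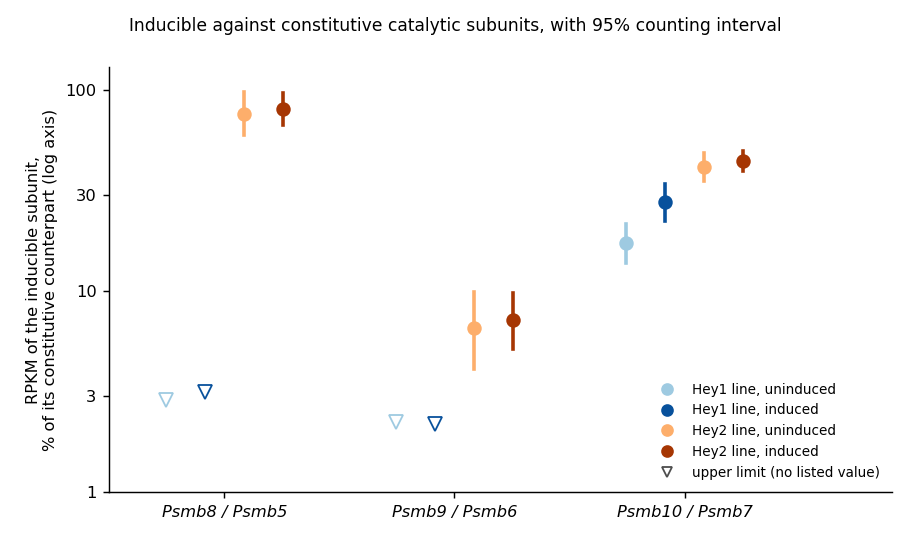
Level of each inducible catalytic subunit as a percentage of its constitutive counterpart on a log axis, in the uninduced and induced libraries of the Hey1 line (blue) and the Hey2 line (orange), with 95% counting intervals. Open triangles are upper limits. Psmb8 lies below 3.15% of Psmb5 in the Hey1 line and at 76.3% and 80.2% in the Hey2 line.

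Among the ATPases of the regulatory particle, levels spread further apart in the Hey1 line than in the Hey2 line. Psmc5, the most abundant, had 79.4 and 81.5 RPKM in the Hey1 line and 61.6 and 61.5 RPKM in the Hey2 line. Psmc3 had 66.4 and 76.6 RPKM against 39.8 and 36.0 RPKM. It was 1.15-fold higher after Hey1 induction (1.05 to 1.27), and lower in the Hey2 line 1.67-fold (1.47 to 1.89) in uninduced and 2.13-fold (1.92 to 2.36) in induced cells. Psmc6 was its reverse, with 24.8 and 18.6 RPKM in the Hey1 line, 1.33-fold lower after induction (1.11 to 1.60), and 48.0 and 44.9 RPKM in the Hey2 line. In that line it was 1.94-fold (1.66 to 2.26) and 2.42-fold (2.08 to 2.83) higher. The highest ATPase level was 3.20 times the lowest in uninduced and 4.39 times in induced Hey1-line cells, and 1.75 and 1.90 times in the Hey2 line. Psmc1, with the lowest mean, had 28.7, 24.8, 38.1 and 32.8 RPKM in the order above, and was 1.16-fold lower after Hey2 induction, beyond counting error. All 6 ATPases were below 0 after Hey2 induction, Psmc5 by less than 0.01 and above 0 with other scalings, and 4 of 6 after Hey1 induction.

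The other subunits of the regulatory particle followed the same direction, with 10 of 11 lower after Hey1 induction (7 of 11 with median ratio scaling) and 8 of 11 after Hey2 induction. Psmd14, the deubiquitinase that releases ubiquitin chains at the mouth of the particle, had 16.1 and 11 RPKM in the Hey1 line and 37.2 and 33.7 RPKM in the Hey2 line. It was 1.47-fold lower after Hey1 induction (1.16 to 1.86), and 2.31-fold (1.92 to 2.78) and 3.06-fold (2.52 to 3.75) higher in the Hey2 line. Psmd6, a subunit of the lid, had 24.6 and 16.3 RPKM in the Hey1 line, 1.51-fold lower (1.23 to 1.86), and 42.4 and 36.7 RPKM in the Hey2 line, 1.16-fold lower (1.00 to 1.33). Psmd12, another lid subunit, was 1.32-fold lower after Hey1 induction (1.14 to 1.52). The lid subunit Psmd3 differed from these, with 58.5 and 63.8 RPKM in the Hey1 line and 52.0 and 46.5 RPKM in the Hey2 line, 1.09-fold higher after Hey1 induction (0.996 to 1.19) and 1.12-fold lower after Hey2 induction, the latter beyond counting error. Psmd8 had 38.7, 37.2, 31.3 and 25.6 RPKM, was 1.22-fold lower after Hey2 induction (1.04 to 1.43), and lay below its Hey1-line level 1.24-fold (1.06 to 1.44) in uninduced and 1.45-fold (1.26 to 1.67) in induced cells. Psmd1, the scaffold of the base, moved with neither induction, at 30.7 and 29.6 RPKM in the Hey1 line and 56.0 and 57.5 RPKM in the Hey2 line, where it was 1.82-fold (1.66 to 2.01) and 1.94-fold (1.78 to 2.12) higher. Of the 11 genes, 8 were higher and Psmd3, Psmd4 and Psmd8 lower in the Hey2 line in both comparisons, Psmd2 turning lower with median ratio scaling.

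The assembly chaperones were low and their ratios imprecise. Psmd5 had 7.21, 7.05, 12.8 and 13.3 RPKM, the libraries in the order above, and was 1.77-fold (1.37 to 2.29) and 1.88-fold (1.5 to 2.37) higher in the Hey2 line. Psmd9 had 4.43, 4.01, 4.43 and 3.31 RPKM from 66 to 89 reads, and its 1.34-fold lower value after Hey2 induction was within counting error (0.958 to 1.86). Psmd10, also known as gankyrin, had 5.69, 4.75, 8.11 and 6.62 RPKM. None of the 3 left counting error with either induction. Psmc3ip had 2.50, 2.61, 10 and 9.12 RPKM, higher in the Hey2 line with intervals from 2.32 to 7.24 in uninduced and from 2.12 to 6.08 in induced cells.

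The activators were all higher in the Hey2 line, with a median difference of 1.07 in uninduced and 1.24 in induced cells, and all 4 stayed above 0 with both other scalings. Psme1 and Psme2 together form the ring that opens the core particle and is induced by interferon. Psme1 had 43.2 and 36.2 RPKM in the Hey1 line and 52.3 and 58.8 RPKM in the Hey2 line, 1.21-fold (1.03 to 1.43) and 1.63-fold (1.4 to 1.89) higher. Psme2 had 8.85 and 7.37 RPKM against 32.6 and 28.1 RPKM, 3.68-fold (2.75 to 4.97) and 3.82-fold (2.84 to 5.20) higher. The partners thus lay far apart in level in the Hey1 line and closer together in the Hey2 line. Psme4, a large single-chain activator, had 13.8 and 11.9 RPKM in the Hey1 line and 42.0 and 45.2 RPKM in the Hey2 line, from 573 to 3019 reads. It was 3.04-fold (2.77 to 3.33) and 3.81-fold (3.48 to 4.17) higher in the Hey2 line. Psme4 was lower after Hey1 induction by 1.17-fold (1.04 to 1.31) and higher after Hey2 induction by 1.08-fold. Both were beyond counting error in RPKM as deposited, and these intervals were not recomputed with other scalings or with the length trend removed. With median ratio scaling the difference of Psme4 after Hey1 induction went from −0.205 to −0.121. Psme3, the nuclear activator, had 25.1, 28.2, 38.6 and 36.2 RPKM, and neither induction moved it beyond counting error. The ratio of the Hey2 to the Hey1 induction still had an interval below 1 for Psme3, at 0.835 (0.712 to 0.979). That interval lay above 1 for Psme4 and for Psme1, at 1.34 (1.08 to 1.66) in Psme1, and took in 1 for Psme2. For Psme1, Psme3 and Psme4 it also left out 1 with median ratio scaling. Psme1 was 1.19-fold lower after Hey1 induction, beyond counting error, and higher after Hey2 induction within it.

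Genes that work with the proteasome were taken from lists by function and counted by the same sizes with an interval that leaves out 1. Of all genes, 8.57% were lower and 1.81% higher by this rule after Hey1 induction, and 3.33% and 3.52% after Hey2 induction. The lists in this paragraph had counts of 0 or 1 against these shares. After Hey1 induction, 1 of 8 proteasome-bound proteins was lower, the ubiquitin ligase Ube3c (1.55-fold, 1.31 to 1.84), and 1 of 15 ubiquitin and shuttle genes, the ubiquitin and ribosomal fusion gene Rps27a (2.22-fold, 1.69 to 2.93). None of 6 assembly factors and inhibitors and none of 7 regulators of subunit transcription passed. After Hey2 induction no gene of the first 3 lists passed, and of the regulators only the small Maf protein gene Mafk was higher (1.52-fold, 1.08 to 2.17). Nfe2l1, the factor that raises subunit transcription when the proteasome is impaired, had 53.1, 55.7, 23.8 and 28.9 RPKM. It was lower in the Hey2 line, 2.23-fold (2.04 to 2.43) in uninduced and 1.93-fold (1.81 to 2.06) in induced cells, while most subunit genes were higher there.

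In the comparison of uninduced lines, 42.3% of all genes were higher and 27.6% lower in the Hey2 line by the same rule, and the list counts are to be read against these shares. Here 3 of the 6 assembly genes were higher in the Hey2 line, Psmg1 (2.51-fold, 1.84 to 3.46), Psmg2 (2.35-fold, 1.71 to 3.25) and Pomp (1.56-fold, 1.28 to 1.91), and none was lower. These chaperones build the alpha ring and then the beta ring. Of the 8 proteasome-bound proteins, the deubiquitinases Uchl5 (3.10-fold, 2.51 to 3.86) and Usp14 (2.52-fold, 2.14 to 2.97) and the thioredoxin Txnl1 (2.38-fold, 1.99 to 2.85) were higher and the ubiquitin receptor Adrm1 lower (1.30-fold, 1.08 to 1.55). Of 15 ubiquitin and shuttle genes 7 were higher and 4 lower, near the shares of all genes. The ubiquitin gene Ubb and the activating enzyme gene Uba1 were among the lower ones.

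Genes of class I antigen presentation were mostly higher in the Hey2 line. Of 9 compared, 7 were higher in uninduced and 8 in induced Hey2-line cells and none was lower, with a median difference of 1.24 and 1.31, where 42.3% and 46.0% of all genes were higher and 27.6% and 27.4% lower. Tap2, a subunit of the peptide transporter, had 0.814, 0.75, 6.15 and 8.86 RPKM, and Tap1, which shares its upstream stretch with Psmb9, had 2.21, 2.80, 3.54 and 4.89 RPKM. After Hey2 induction Tap2 was 1.44-fold (1.12 to 1.87) and Tap1 1.38-fold higher, both beyond counting error, whereas Psmb9 and Psmb8 were not beyond counting error. H2-K1, a class I heavy chain whose close relatives make its reads less certain, was 1.69-fold lower after Hey1 induction (1.26 to 2.28). Of 13 interferon genes compared, 5 were higher and 2 lower in each comparison of the lines, no larger a share higher than among all genes. Isg15, Ifit1 and Ifit3 did not enter this count, as they had values in the Hey2 line only. Isg15 stood at 10.4 and 13.6 RPKM there, at least 5.79-fold and 7.73-fold higher. Ifit1 was at least 1.67-fold and 2.96-fold higher, and Ifit3 had 1.04 and 2.32 RPKM. Bst2, among the 5, was 5.05-fold (3.99 to 6.44) and 7.29-fold (5.77 to 9.33) higher. Irf1, an activator of immunoproteasome genes, had 1.89 and 1.31 RPKM in the Hey1 line and 25.7 and 29.7 RPKM in the Hey2 line, 13.6-fold (10.1 to 18.7) and 22.7-fold (16 to 33.1) higher. Ifngr2, a chain of the interferon gamma receptor, was lower in the Hey2 line, 5.35-fold (3.99 to 7.30) and 4.20-fold (3.39 to 5.23).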

How the data were processed

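Of the series, 4 RNA libraries were used and 8 chromatin samples were not analysed here. Per the file headers, the authors deposited RPKM for 23427 genes. The same table holds the authors' signed fold of each line, a score that was not used for any value given here. The submitters' processing notes name Bowtie 1.0, DESeq, MACS 1.4.1 and the build mm9. The sources used here give no read counter, annotation or strand handling, so overlapping and antisense genes are uncertain.

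The number of reads that each library was divided by was recovered from the steps of the RPKM values and the lengths of single-exon genes in RefSeq, as 7.4, 7.5, 5.75 and 10.375 M reads. Of 14366 genes with at least 2 values, 99.91% then gave whole reads within 3e-06 reads at the smallest possible length. A gene whose true length is a multiple of that length has more reads and a narrower interval. The table has blank cells, which were taken as fewer than the lowest commonly listed number, 10 reads for the Hey1 and 5 for the Hey2 line. Limits and "at least" folds rest on it. Read recovery and intervals were tested on simulated data.

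Differences are of log2(RPKM + 1), computed from the deposited RPKM, which understates the change of low genes. Folds are plain ratios of RPKM. Levels have exact Poisson and ratios exact conditional binomial 95% intervals of counting error only, since PCR copies are not independent molecules. With 1 library per group there is no replicate and no p-value, and genes were counted by size (25% higher or 20% lower, and 2-fold). All 10991 genes compared had 4 values and a mean of at least 1 RPKM, and 6 exact copies were left out. Every immunoproteasome and activator gene, Psmb5 to Psmb7, every gene with a blank, and in each role the highest and lowest gene and the extreme differences are named with all values. Members and lists were chosen with earlier results of these data known. The lists tried were assembly, proteasome-bound, ubiquitin, regulator, class I presentation and interferon genes. Alternatives were other pseudocounts, scalings, filters and a length trend. Python 3.11.15, NumPy 2.4.6, pandas 2.3.3, SciPy 1.17.1 and Matplotlib 3.10.9 were used. Sequences and windows are from RefSeq, GRCm38.p6.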

Additional observations from a re-analysis of the deposited data

Results flagged for a closer look

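Psme4, the large single-chain activator, moved in opposite directions with the inductions, each beyond counting error in RPKM as deposited. Its difference of log2(RPKM + 1) was −0.205 after Hey1 induction and 0.10 after Hey2 induction. The plain ratio was 1.17-fold lower (1.04 to 1.31) and 1.08-fold higher, with an interval above 1. With median ratio and upper quartile scaling the difference after Hey1 induction was smaller, at −0.121 and −0.146. Psme4 is also long, at 6442 bases against a median of 2890 bases over all genes, and longer genes were higher after Hey2 induction. The interval of each induction was not recomputed with other scalings or with the length trend removed. The ratio of the Hey2 to the Hey1 induction had an interval above 1 for Psme4, also with median ratio scaling. Psme4 was not alone among the activators: that interval also left out 1 for Psme1 (above) and Psme3 (below) in both settings. Whether the inductions differ beyond the spread between cultures was not tested, since each group has 1 library.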

How the results depend on the processing

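Of 406 group medians, counts and ratios recomputed under alternatives, 356 stayed within tolerance, 50 moved and 0 reversed. A change of sign of a small difference was not labelled a reversal, and counts have no sign to reverse. Some of the 356 could not move. Leaving out the chaperones and Psmc3ip cannot change the median of the core, the regulatory particle or the activators. The medians of the constitutive beta ring between lines changed sign with median ratio scaling, but were not among the 406. The tolerance is 1.5 times for counts, and for medians the typical counting interval of a gene, narrowed for the number of genes, an approximation that takes no account of spread between cultures. After Hey1 induction, median ratio scaling gave medians of −0.072 for all members, −0.12 for the core and −0.068 for the regulatory particle, with 5 genes lower by 20% and 1 higher by 25%, and upper quartile scaling −0.097 for all members. After Hey2 induction, removing the length trend gave −0.076, 1 gene lower and 1 higher. There 1 was also lower with median ratio scaling, with a mean of at least 5 RPKM, and without the chaperones and Psmc3ip. The ratio of inductions had 7 intervals above 1 with median ratio scaling. For the uninduced lines, median ratio and upper quartile scaling gave medians of 0.21 and 0.29 for all members, 0.11 and 0.18 for the core, 0.16 and 0.24 for the regulatory particle and 0.84 and 0.91 for the activators, each with 8 genes lower by 20%, and median ratio scaling 1.30 for Psmb10. The length trend removed gave 0.57, 0.55 for the core and 0.53 for the regulatory particle, with 11 higher past 2-fold. For the induced lines the scalings gave 0.27 and 0.36 for all members, 0.26 and 0.36 for the core, 0.070 and 0.17 for the regulatory particle, 1.03 and 1.12 for Psmb10 and 0.93 and 1.03 for the activators, with 10 and 9 genes lower by 20% and, with median ratio scaling, 6 higher past 2-fold. The length trend removed gave 0.72, 0.82 for the core and 0.54 for the regulatory particle, with 3 lower by 20% and 0 lower past 2-fold. Blanks read as 0 gave a median of 0.63 for all members between induced lines, and immunoproteasome medians of 0 after Hey1 induction, 2.58 between uninduced and 2.59 between induced lines. The summed RPKM of Psmb8 to Psmb10 was 6.10%, 8.21%, 31.5% and 34.4% of that of Psmb5 to Psmb7 over the 4 libraries, blanks left out. No paired analysis was possible because each group has 1 library. Depth limits Psma8, Psmc3ip and Psmb9 most, with 14, 18 and 23 reads in the listed library with the fewest.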
